A study of Mus musculus with 3 samples.

Results

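Immature apical vomeronasal sensory neurons (VSNs) were chosen by measured UMI counts, as barcodes that carried the RNA of growing axons together with the apical transcription factor Meis2 and more apical than basal G protein. A member had at least 2 UMIs (unique molecular identifiers, 1 for each captured RNA molecule) of Gap43, at least 5 of Stmn2 and Tubb2b together, more than 0.1% of its UMIs in Gap43 and Stmn2, at most 1 of Neurod1, at least 2 of Meis2, and more Gnai2 than Gnao1 UMIs. Of 27359 barcodes, 15711 had 200 to 9000 genes and at most 10% of UMIs from mitochondrial genes, and 328 of these were members. The vomeronasal organ (VNO) was profiled by droplet single-cell RNA-seq in 3 libraries, all from male mice on a C57 BL/6J 129P2/OlaHsd mixed background. The control library came from OMPCre Heterozygous mice at postnatal day 10 (P10) and held 204 members. The P10 mutant library came from OMPCreR26AP2e Double Heterozygous mice and held 98 members, and a library of the same mutant genotype at 3mo held 26. All groups therefore carried the OMPCre allele, and the mutants also carried a Cre-dependent Tfap2e (AP-2ε) transgene in the Rosa26 locus. The labels give 1 library per group and no number of animals, so no test between groups was possible, and every interval below covers counting error only, not differences between animals. The 3-month library has no control of its own age and went through another version of the read-counting software, so age, software and library cannot be told apart.

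VSNs are replaced throughout life. Their precursors turn off Neurod1 and take either the apical path, marked by Meis2, Gnai2 and receptors of the Vmn1r (V1R) family, or the basal path, marked by Tfap2e, Gnao1 and receptors of the Vmn2r (V2R) family. While they extend axons they carry Gap43, and as they mature they gain olfactory marker protein (Omp). Because Cre is driven by Omp, the transgene should be switched on as a cell begins to mature, but its onset was not measured. Sequenced transcripts of the transgene and of the endogenous Tfap2e gene (chr4:126716006-126736240, mm10, minus strand) were counted as one.

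Members made up 4.25% of the retained barcodes in the P10 control (95% exact binomial interval 3.70 to 4.86%), 2.48% in the P10 mutant (2.02 to 3.01%) and 0.374% in the 3-month mutant (0.244 to 0.547%). Immature basal VSNs numbered 89, 41 and 9 in the same order, so the apical share of immature VSNs with a side was 69.6%, 70.5% and 74.3%, with overlapping intervals of 64.0 to 74.8%, 62.2 to 77.9% and 56.7 to 87.5%. The share of immature apical VSNs among retained barcodes was lower in the mutants, whereas their proportion to basal ones was not distinguishable between the libraries. Retained barcodes were 58.5%, 44.6% and 67.6% of those deposited, with median depths of 10236, 10766.5 and 5010.5 UMIs. Of 4795, 3956 and 6960 retained, 678, 926 and 1937 were immune barcodes. The part of these differences in the shares was not tested. The libraries held 70074800 to 83870584 UMIs in all, and the median member had 17109.5 UMIs in the control, 21085 in the P10 mutant and 10954.5 at 3 months. The libraries shared 21 to 30 barcode sequences in each pair, and no barcode was a member in more than 1 library. At the edge of the rule, 10, 2 and 1 members sat at exactly 2 Meis2 UMIs, and 8, 6 and 0 barcodes that met every other condition had 1. Members with 0.1 to 0.15% of UMIs in Gap43 and Stmn2 numbered 44, 23 and 3, and 74, 55 and 5 barcodes lay just under that limit, at 0.05 to 0.1%.

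The marker genes bore out part of the label. Tubb3, Dcx and Crabp1, which the rule did not use, reached 994, 141 and 1063 CPM (UMIs of a gene in all members of a library per 1000000 of their UMIs) in control members, against 148, 15.2 and 208 CPM in the other barcodes of that library. Cnga2, the cyclic nucleotide-gated channel of the main olfactory epithelium, was at 0 UMIs in members of all 3 libraries, but the other 4 genes of the 5-gene list of main olfactory neurons were seen in each, and the list summed to 39.2, 26.9 and 27.1 CPM against 29.4, 17.5 and 15.3 CPM in the other barcodes. Part of the members, however, also carried the RNA of sustentacular cells, the supporting cells of the epithelium. A panel of 8 genes abundant in such cells (Cyp2a5, Fezf2, Sox2, Sult1e1, Krt23, Car9, Ednrb and Svopl), chosen after the data were seen, split the members into a large group with 0 to 2 panel genes and a small group with most of them, as the plot of panel genes per member shows.

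**Figure D1:**
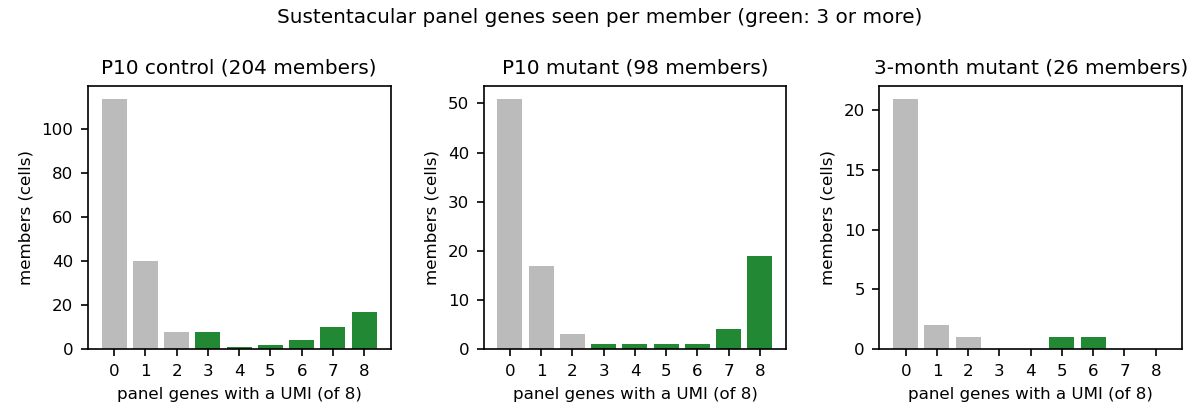
Number of the 8 sustentacular panel genes with at least 1 UMI (horizontal axis) against the number of immature apical VSNs (vertical axis, cells) in each library, with 3 or more genes in green. Most members have 0 panel genes (114, 51 and 21), and 31, 24 and 1 have 6 or more.

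Members with 3 or more panel genes numbered 42 of 204 control cells (20.6%, 15.3 to 26.8%), 27 of 98 P10 mutant cells (27.6%, 19 to 37.5%) and 2 of 26 at 3 months (7.69%, 0.946 to 25.1%). They had a median of 38137, 35974 and 27819 UMIs against 15782.5, 18686 and 10591.5 in the rest, and held 35.3%, 43.4% and 15.1% of all member UMIs. In the control, Sult1e1, a sulfotransferase, was at 785 CPM in them and 4.14 CPM in the other members, and Krt8, an epithelial keratin, at 2486 and 316 CPM. The neuronal genes went the other way, with Gap43, a gene of the rule, at 429 against 1138 CPM and Tubb3 at 470 against 1279 CPM. Tubb3 was still far above the 7.16 CPM of immune barcodes, which were chosen to lack Gap43. Only 5 of 89 immature basal VSNs of the control, and none of the 41 and 9 of the mutants, had 3 or more panel genes. Mature V1R neurons, barcodes with Omp, mostly V1R receptor UMIs and little Gap43, had them in 3 of 12, 4 of 8 and 13 of 24 cells. Panel RNA was thus not particular to the members. The Scrublet doublet caller marked 13 of the 42, 9 of the 27 and 1 of the 2, and 10, 10 and 0 of the other members. Whether such barcodes held 2 cells or 1 was not tested. Results below are therefore for the 162, 71 and 24 members with fewer than 3 panel genes unless stated, and values over all members are added beside the main ones and where a call is lost. Without the panel-bearing barcodes the members' share of retained barcodes was 3.38%, 1.79% and 0.345%, and the apical share 65.9%, 63.4% and 72.7%.

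Markers of other cell types were mostly lower in members than in the other barcodes. The B-cell list was at 1868, 1409 and 2471 CPM, nearly all from Ebf1, a factor that olfactory neurons also use. The T-cell genes Cd3d, Cd3e and Cd3g were at 0 in members of the control and of the 3-month library. All 6 neutrophil genes were seen in both P10 libraries, at 221 and 742 CPM against 5859 and 6483 CPM in the other barcodes, and 3 of 6 at 3 months, at 86.6 against 3798 CPM. Macrophage genes were at 80.5, 261 and 13.5 CPM, with Tyrobp and Csf1r at 0 at 3 months. Single barcodes stood apart, since 1 control member had 20.7% of its UMIs in fibroblast genes and another 6.82% in gland genes, and 1 P10 mutant member had 8.17% in neutrophil genes. Their part in the pooled levels below was not tested gene by gene.

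Tfap2e, whose product directs basal VSN identity, was the gene that separated mutant from control immature apical VSNs most clearly. In members with few panel genes it was at 4.14 CPM in the P10 control (2.06 to 7.40 CPM), 458 CPM in the P10 mutant and 172 CPM in the 3-month mutant. The control value came from 11 UMIs in 4 of 162 cells, and 1 cell held 63.6% of them. The P10 mutant was 111 times the control (61.5 to 223), and the 3-month mutant was at 0.375 of the P10 mutant (0.279 to 0.496). Over all members the levels were 9.0, 354 and 160 CPM and the P10 ratio was 39.3 (28.3 to 56.2). A Tfap2e UMI was seen in 63.4% of mutant members at P10 and 41.7% at 3 months, so cells without any were present in both mutant libraries, as the plot of Tfap2e in each member shows.

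**Figure D2:**
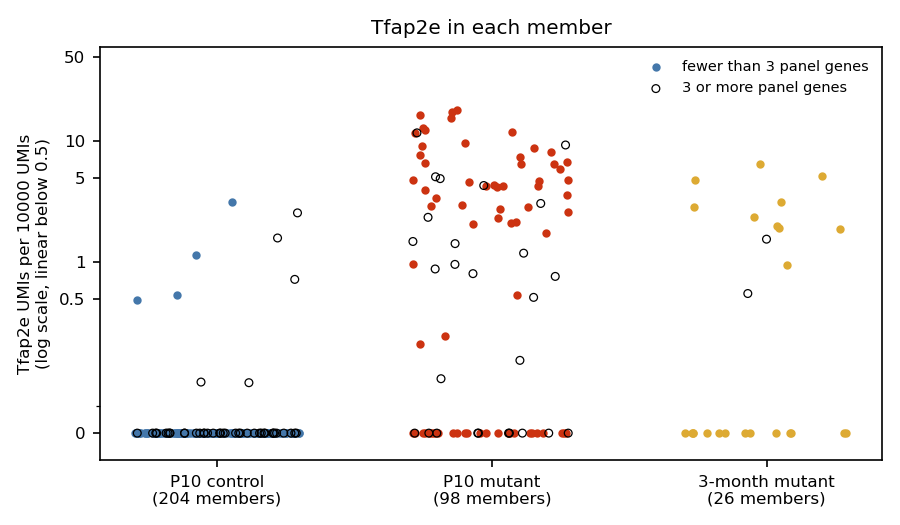
Tfap2e UMIs per 10000 UMIs of the cell (vertical axis, logarithmic above 0.5 and linear below) in every immature apical VSN of the 3 libraries, with open circles for members with 3 or more panel genes. All but 9 of the 204 control members lie at 0, whereas P10 and 3-month mutant members are spread from 0 upwards.

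Tfap2e UMIs were also found outside the neurons. Immune barcodes, which should lack the gene, were at 0.33, 16.1 and 12.2 CPM in the 3 libraries. All retained barcodes other than the members with few panel genes, neurons among them, were at 9.98, 154 and 51.3 CPM. The panel-bearing members had 17.9, 218 and 89.9 CPM. With each cell thinned to 2000 UMIs (mean of 20 draws), a Tfap2e UMI was left in 0.481% of control, 39.7% of P10 mutant and 19.2% of 3-month mutant members, against 0.179%, 3.47% and 3.15% of immune barcodes, whose median depths before thinning were 6232.5, 4884 and 4984 UMIs. The shares in mutant members were thus above those of immune barcodes in the same library, and the control share was near it. Immature basal VSNs, in which the gene is normally active, had 215 CPM in the control and 524 CPM in the P10 mutant, so the level of mutant apical cells was of the same order. Neurod1-positive precursors, a stage before the members, had 1.88 CPM in 57 control barcodes and 89.1 CPM in 20 mutant ones. In the mutant, 8 of the 20 had a UMI, 1 of them held 69.7% of the UMIs, and 29.3 CPM remained without it.

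The level followed Omp. Among P10 mutant members with few panel genes, Tfap2e was at 227 CPM in the 37 cells with 0 Omp UMIs (189 to 269 CPM), 570 CPM in the 18 cells with 1 to 4 (494 to 654 CPM) and 683 CPM in the 16 cells with 5 or more (606 to 768 CPM). The gene was seen in 37.8%, 88.9% and 93.8% of them. In control members the 3 groups were at 7.40, 0 and 2.04 CPM. Tfap2e was therefore high in every group of mutant cells, including cells in which no Omp RNA was captured, and higher still in those with Omp. The 2 groups with Omp each had fewer than 20 mutant cells. Pooled into 34 cells they were at 631 CPM against 1.39 CPM in 73 control cells, and their median depth (18275 and 25720 UMIs) exceeded that of cells at 0 Omp UMIs (15344). At 3 months 19 of 24 cells had 0 Omp UMIs, and Tfap2e was at 81.0 CPM there, against 284 CPM in 3 cells and 351 CPM in 2.

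Across all genes with at least 50 UMIs in the 2 libraries compared, a gene was called when its CPM differed at least 2-fold and the 95% interval of the ratio left out 1. At P10, 198 of 8206 genes were called higher (2.41%) and 140 lower (1.71%) in mutant members with few panel genes. Over all members 236 of 9935 genes were called higher (2.38%) and 159 lower (1.6%), of which 95 and 97 were called in both sets of cells. The median gene differed by 0.03 on the log2 scale. The genes described first are the 12 with the most extreme interval bound in each direction, under the limits on abundance given in the processing notes, and most are drawn in the plot of their 3 levels.

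**Figure D3:**
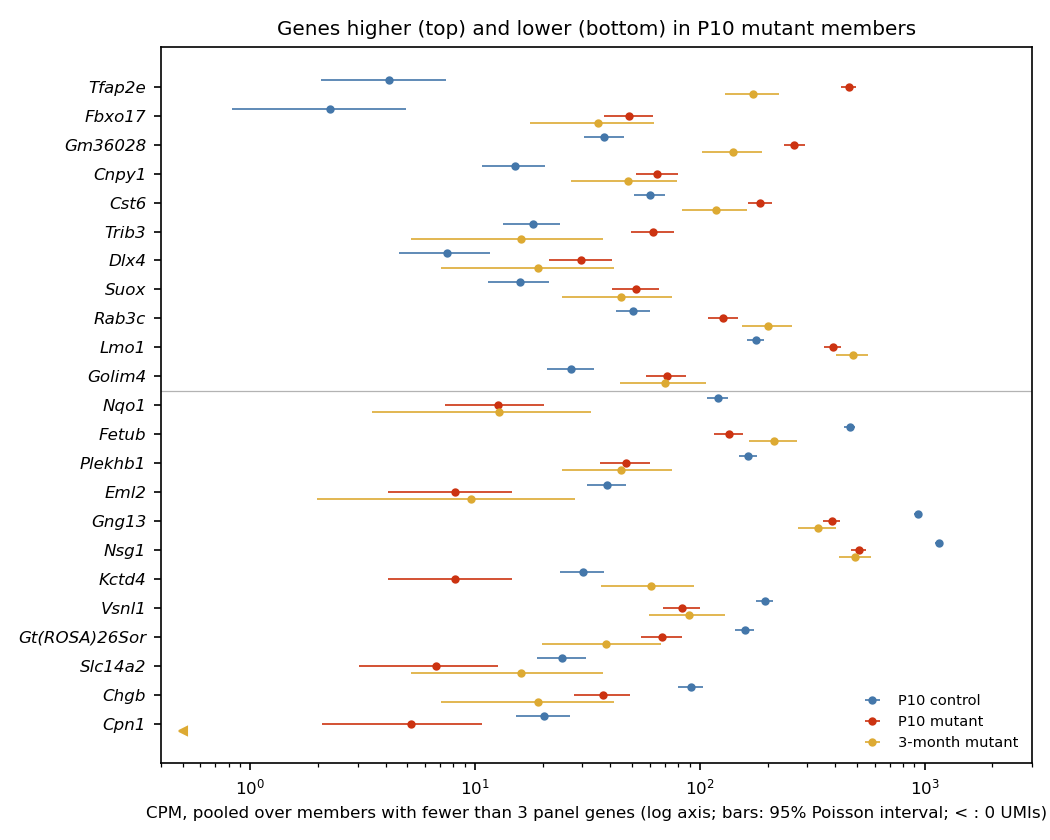
Level of each gene (horizontal axis, CPM on a log scale) pooled over the members with fewer than 3 panel genes of each library, with 95% Poisson intervals as bars and a triangle where no UMI was seen. The genes in the upper block are higher and those in the lower block lower in P10 mutant than in P10 control members. Many 3-month values have wide intervals, and some rest largely on 1 cell.

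Among genes higher in the mutant, Fbxo17, an F-box protein that recruits targets to a ubiquitin ligase, rose from 2.26 to 48.3 CPM (21.4-fold, 9.32 to 60.5) and was at 35.1 CPM at 3 months. The control value came from 6 UMIs in 6 cells. The 3-month value came from 11 UMIs in 4 cells, with 45.5% of them in 1 cell. Over all members Fbxo17 was at 4.38 and 39.5 CPM at P10, a 9.02-fold difference (5.41 to 15.9). Gm36028, a predicted protein-coding gene with no assigned function, was at 37.6, 263 and 140 CPM in the P10 control, P10 mutant and 3-month mutant. Cnpy1, a member of the canopy family that modulates fibroblast growth factor signalling, was at 15, 64.6 and 47.8 CPM, which at P10 was a 4.30-fold difference (2.92 to 6.42). Cnpy1 was also abundant in immature basal VSNs of the control, at 410 CPM, so for this gene the mutant apical cells reached only part of the basal level. The level of Gm36028 in basal cells is not given here. At 3 months 1 cell held 86.7% of the Cnpy1 UMIs and 1 cell held 50% of those of Gm36028, and 6.96 and 82.6 CPM remained without that cell, the Cnpy1 value below that of the control. Cst6, a protease inhibitor, was at 59.8, 186 and 118 CPM, Rab3c, a GTPase of synaptic vesicles, at 50.4, 127 and 201 CPM, and Lmo1, a LIM-domain transcriptional cofactor, at 177, 391 and 478 CPM. At 3 months 1 cell held 55.6% of the Rab3c UMIs, 36.0% of the Lmo1 UMIs and 45.9% of the Cst6 UMIs, and 105, 334 and 75.1 CPM remained without the top cell of each gene. Trib3, a pseudokinase of the stress response, was at 18.1, 61.7 and 15.9 CPM and was thus highest in the P10 mutant, at 40.8 CPM over all its members. The homeobox gene Dlx4, the sulfite oxidase gene Suox and the Golgi protein gene Golim4 were also among the 12, with ratios of 2.67 to 3.95. Over all members the ratio of Dlx4 was 2.06.

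Immune barcodes of the 2 P10 libraries gave ratios of 0.594 for Fbxo17, 1.57 for Gm36028, 2.49 for Cnpy1, 3.56 for Rab3c and 1.04 for Lmo1, from levels of 2.97 CPM or less in the mutant except for Lmo1, at 23.4 CPM. When all members were used, the genes AA465934, Aebp2, Tuft1, Lmcd1, Mfap3l and Mt3 were among the 12, and Trib3, Dlx4, Suox, Lmo1 and Golim4 were not. Lmcd1 and Tuft1 were at 67.7 and 70.6 CPM in all P10 mutant members, and Tuft1 was also at 69.4 CPM in the other barcodes of that library.

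Among genes lower in the mutant, Nqo1, a quinone reductase, fell from 120 CPM in the control to 12.6 CPM in the P10 mutant, 0.105 of the control level (0.0606 to 0.171), and was at 12.7 CPM at 3 months. It was seen in 32.7% of control members but 15.5% of P10 mutant members. Immune barcodes had 1.00, 0.59 and 2.58 CPM. Nsg1, an endosomal protein of neurons, was at 1155, 508 and 491 CPM, and Gng13, a G protein γ subunit, at 933, 386 and 335 CPM, so both were lower in the mutant libraries. Fetub, a secreted protease inhibitor, was at 465, 134 and 213 CPM and Plekhb1, a membrane-associated protein, at 164, 46.8 and 44.6 CPM. At 3 months 1 cell held 58.1% of the UMIs of Gng13, 67.2% of those of Fetub and 85.7% of those of Plekhb1, and 153, 82.6 and 7.51 CPM remained without the top cell of each gene. Chgb, a protein of secretory granules, and Vsnl1, a calcium sensor, were at 0.408 and 0.427 of the control. Eml2, Kctd4, Slc14a2 and Cpn1 completed the group at 0.211 to 0.274. Gt(ROSA)26Sor, the non-coding gene of the locus that carries the transgene, was at 158, 67.6 and 38.2 CPM. Its ratio in immune barcodes was 0.446, close to the 0.428 of members, and those of Fetub (0.373), Plekhb1 (0.274), Gng13 (0.399) and Nsg1 (0.356) were also below 1 there. In the other barcodes of the mutant, neurons among them, Nsg1 and Gng13 were at 41.1 and 34.2 CPM, against 137 and 138 CPM in the control. Nqo1, Chgb and Vsnl1 were at 8.78, 2.58 and 10.4 CPM there, against 20.7, 11.1 and 27.3 CPM in the control. These genes were thus lower outside the members too, and the part of this library-wide difference in the members' values was not tested.

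AP-2 factors bind the palindrome GCCNNNGGC, which reads alike on both strands. It was searched in promoters from RefSeq (GRCm38.p6, 250 bases before to 50 after each start). The promoters of Fbxo17 and Nqo1 are shown with the motif in capitals. Among the 12 genes named in each direction at P10, Fbxo17 had the highest ratio after Tfap2e and Nqo1 the lowest. The Fbxo17 promoter lies at chr7:28716532-28716831 on the plus strand and that of Nqo1 at chr8:107403156-107403455 on the minus strand.
Fbxo17: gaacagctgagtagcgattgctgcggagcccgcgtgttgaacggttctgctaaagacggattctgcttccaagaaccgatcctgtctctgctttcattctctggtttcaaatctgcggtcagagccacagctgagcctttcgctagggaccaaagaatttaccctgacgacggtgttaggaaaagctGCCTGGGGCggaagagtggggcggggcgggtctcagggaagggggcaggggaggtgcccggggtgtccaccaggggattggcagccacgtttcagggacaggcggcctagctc
Nqo1: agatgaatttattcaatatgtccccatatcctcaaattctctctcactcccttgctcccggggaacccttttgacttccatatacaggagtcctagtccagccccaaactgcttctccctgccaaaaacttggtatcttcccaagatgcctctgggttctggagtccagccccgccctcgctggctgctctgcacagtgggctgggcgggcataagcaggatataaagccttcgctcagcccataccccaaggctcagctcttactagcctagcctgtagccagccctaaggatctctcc
Fbxo17 has 1 match, 63 bases before the start, and Nqo1 has none. No match was found in the promoters of Gm36028, Cnpy1, Rab3c, Crabp1, Chgb, Plekhb1 or Fetub, and 1 of the 2 promoters of Gng13 has a match. The promoters of Cst6, Mt3, Nrp2, Nsg1 and Robo2 are not reported here. The motif was present in 18.5% of all 27025 genes with a promoter, in 29.3% of the 6529 tested at P10, in 22.2% of 158 called higher and in 18.1% of 105 called lower. Called genes therefore held it no more often than tested genes. Of the basal and apical lists described further on, 41.7% of 36 and 23.2% of 56 genes held it.

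Several differences were wider in more mature cells, read from Omp, as the plot of levels by Omp count shows. In control members Nqo1 was at 20.6 CPM in cells with 0 Omp UMIs, 71.1 CPM with 1 to 4 and 267 CPM with 5 or more, whereas in P10 mutant members it was at 15.7, 8.42 and 12 CPM. The intervals of the first group overlapped (13.3 to 30.4 and 7.17 to 29.8 CPM) and those of the others did not. Nsg1 was at 457, 999 and 2095 CPM in the control and 451, 500 and 592 CPM in the mutant. Both genes were thus higher with more Omp in the control and nearly level in the mutant. Gng13 was higher with Omp in both, at 74.0, 883 and 2023 CPM in the control and 29.6, 233 and 1008 CPM in the mutant.

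**Figure D4:**
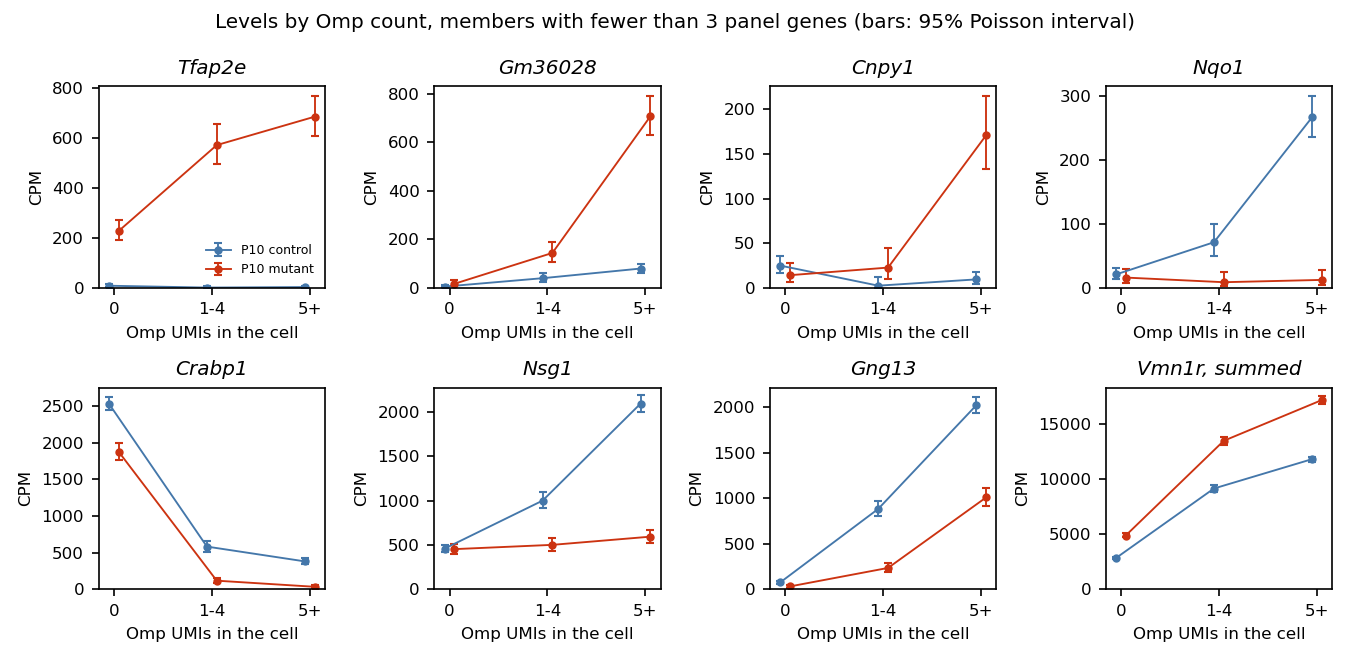
CPM (vertical axes) of 7 genes and of all Vmn1r genes summed, pooled over members with fewer than 3 panel genes that have 0, 1 to 4 or 5 and more Omp UMIs (horizontal axes), in the P10 control and P10 mutant, with 95% Poisson intervals. For Nqo1 and Nsg1 the libraries are close at 0 Omp UMIs and far apart at 5 or more. Cnpy1 is lower in the mutant at 0 Omp UMIs and higher at 5 or more, and Gm36028 is higher in the mutant in every group.

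Gm36028 showed the reverse, at 4.11, 38.8 and 78.6 CPM in the control and 15.7, 143 and 708 CPM in the mutant, and Cnpy1 was at 24.7, 2.15 and 9.19 CPM in the control and 13.9, 22.5 and 171 CPM in the mutant. Crabp1, which binds retinoic acid and marks young apical cells, was at 2537, 581 and 379 CPM in the control and 1878, 115 and 31.3 CPM in the mutant, so its level was lower with Omp in both libraries and lower still in the mutant. In the control group with 5 or more Omp UMIs, 1 cell held 52.3% of the Crabp1 UMIs. Pooled over the cells with any Omp, Smchd1, a chromatin protein of gene silencing, was at 101 CPM in 73 control and 330 CPM in 34 mutant cells (3.27-fold, 2.65 to 4.03), and Kirrel3, an adhesion molecule of basal VSN axons, at 54.0 and 145 CPM (2.69-fold, 1.99 to 3.63). Gap43 was at 940 and 1003 CPM, but it is a gene of the rule, so the selection constrained its level.

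The apical and basal identity genes were mixed in direction. Of 5 apical identity genes, Nqo1 was called lower at P10 and the others were not called. Nrp2, a semaphorin receptor of apical axons, was at 568, 468 and 844 CPM in the P10 control, P10 mutant and 3-month mutant, and Ncam2, an adhesion molecule, at 106, 130 and 131 CPM. Pde4a was at 55.7, 33.4 and 31.9 CPM and Kirrel2 at 88.4, 65.4 and 25.5 CPM, the latter called lower between the mutant ages (0.39). Meis2 itself, a gene of the rule, was at 1722, 1449 and 2412 CPM. Of 20 basal identity genes, 6 had 50 UMIs, and Tfap2e, Kirrel3 (42.9 to 94.4 CPM, 2.20-fold) and Vmn2r7 (9.40 to 39.4 CPM, 43.4% of it in 1 cell) were called higher and Vmn2r3 lower. Over all members Kirrel3 had a ratio of 1.61 and only Tfap2e and Vmn2r7 of this list were called. Bcl11b, a zinc-finger factor needed for basal cells, was at 279, 256 and 290 CPM, and Robo2, the guidance receptor of basal axons, at 38.7, 44.6 and 47.8 CPM, and neither was called. Of the 9 H2-M genes, class Ib histocompatibility genes of mature basal VSNs, none reached 50 UMIs. Gnao1, a gene of the rule, was at 90.3, 181 and 73.3 CPM.

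To describe identity beyond chosen markers, genes were ranked between immature basal and immature apical VSNs in one part of the P10 control cells (77 members and 39 basal cells), and the mutant was compared with the other part (85 members and 45 basal cells), which the ranking had not used. This gave 42 genes higher in basal cells (the basal list) and 69 higher in apical cells (the apical list). In P10 mutant members the basal genes had a median log2 ratio of 0.46, with 34 of 40 above 0, and the apical genes -0.34, with 18 of 67 above 0, while all 7093 genes had 0.04. Between the 2 control parts the medians were -0.04 and -0.17, with 20 of 40 and 20 of 69 above 0. In members with few panel genes, the basal genes were thus higher in the mutant by more than the control parts differed. The apical genes were lower between the control parts too, with a smaller median shift but a similar share of genes above 0. The control parts are cells of the same library, so their difference covers spread among its cells only. How far such medians differ between libraries of the same genotype was not tested. The shifts of both lists in the mutant were small beside the medians of 1.90 and -1.75 between immature basal and apical cells of the same control part. The plot of these lists shows the spread of single genes.

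**Figure D5:**
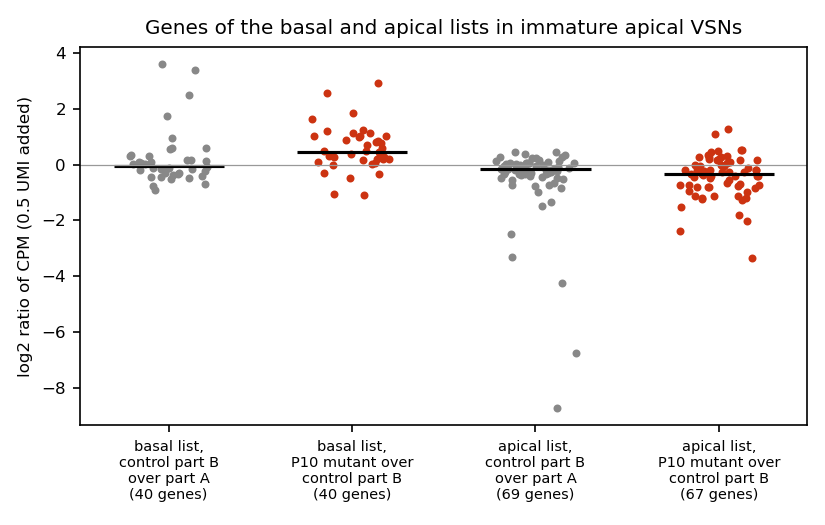
Log2 ratio of CPM (vertical axis, 0.5 UMI added) for each gene of the basal and apical lists in immature apical VSNs with fewer than 3 panel genes, with black lines at the medians. The basal genes lie higher and the apical genes lower in the P10 mutant over control part B (red) than in control part B over part A (grey).

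With the cells divided by Omp, the medians were 0.25 and 0.06 at 0 Omp UMIs and 0.55 and -0.46 at 1 or more, where 29 of 39 basal and 16 of 66 apical genes were above and all genes had 0.01. At 3 months, against the same control part, they were 0.21 and -0.38, with 27 of 40 and 26 of 67 above 0. In immune barcodes of the mutant over the control they were 0.04 and -0.004. Other genes of the basal list with higher levels in the mutant, named here after their values were seen, were Mt3, a metallothionein (10.1 CPM in the control part, 32.0 CPM in the P10 mutant), Pea15a (23.5 and 55.7 CPM), Akr1b3, an aldose reductase (28.9 and 67.6 CPM), and the keratins Krt8 (282 and 561 CPM) and Krt18 (177 and 357 CPM), which immature basal VSNs carried at 1000 and 658 CPM. Both keratins were also higher in immune barcodes of the mutant, at 58.4 and 96.5 CPM for Krt8 and 80.9 and 131 CPM for Krt18. The panel-bearing members of the P10 mutant had 3481 CPM of Krt8 and 4308 CPM of Krt18. The part of remaining sustentacular RNA in the keratin levels was not tested. Chaperones of the endoplasmic reticulum on that list moved little, with Hspa5 at 503 and 648 CPM and Manf at 430 and 521 CPM. On the apical list A2ml1, a protease inhibitor, was at 51.7 and 9.66 CPM and Esd, an esterase, at 103 and 42.4 CPM. S100a8, S100a9 and Klf2 on the basal list and Lcn3, Ltf and Wfdc18 on the apical list are abundant in immune or gland cells. When all members were used, the apical list grew to 308 genes and its median was 0.83, the opposite sign, with the panel-bearing members in the ranking. The basal list then held 51 genes with a median of 0.17 and 28 of 48 above 0. Between the control parts its median was 0.099, with 31 of 47 above 0. Over all members the shift of the basal genes was thus not clearly beyond the difference between the control parts. With a ranking bound of 1.5 in place of 2, the median in the mutant was -0.00097.

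V1R receptors led in most P10 members of either genotype. Of the members with at least 5 receptor UMIs, 105 of 108 control cells, 44 of 48 P10 mutant cells and 5 of 8 from the 3-month library had at least 80% of them in Vmn1r genes. V2R receptors led in 1, 3 and 2 cells, and 2, 1 and 1 had a mixture. Over all members V1R receptors led in 132 of 139, 58 of 66 and 5 of 10 cells and V2R receptors in 1, 4 and 4. Summed Vmn1r RNA was at 7230 CPM in the control and 10944 CPM in the P10 mutant (1.51-fold, 1.48 to 1.55), but 6411 and 7399 CPM over all members (1.15-fold). At 3 months it was at 5764 CPM, of which 1 cell held 92.1%, and 537 CPM remained without that cell. In cells with at least 5 V1R UMIs at P10, the leading Vmn1r gene took a median 97.8% of them in the control and 99.8% in the mutant, and at least 80% in 65 of 105 and 35 of 45 cells. In these cells 65 and 34 different genes led, so the members of both libraries were divided among many receptors. Near-identical receptor genes share reads, so the identity of single receptors is uncertain.

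Summed Vmn2r RNA was at 97.0, 331 and 1013 CPM in members with few panel genes. Single cells held 48.8%, 41.5% and 89.6% of it, and without those cells the levels were 50.1, 200 and 112 CPM. In the P10 mutant 2 cells held 78.3% of it, and without the top 2 cells of each library the levels were 38.6, 75.9 and 48.7 CPM. Over all members the levels were 81.5, 333 and 1594 CPM, and 43.8, 154 and 121 CPM without the top 2 cells. In members with few panel genes, the summed V2R values thus rested mostly on a pair of cells in every library, the control included. Over all members they did so in each mutant library. V2R UMIs were seen in 44 of 162, 18 of 71 and 7 of 24 members.

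Within the P10 mutant library, the 45 members with a Tfap2e UMI differed from the 26 without in more than Tfap2e, but also in depth (median 21414 and 12876 UMIs) and in Omp, which 31 and 3 of them carried. Crabp1 was at 242 CPM in the first and 2812 CPM in the second, and Nrp2 at 348 and 864 CPM. Rab3c was at 157 and 28.7 CPM, Gm36028 at 310 and 108 CPM, Gng13 at 467 and 118 CPM, and summed Vmn1r RNA at 12951 and 4342 CPM. Gap43, a gene of the rule, was at 1329 and 1326 CPM and Tubb3, which the rule did not use, at 1263 and 1294 CPM. Over all members Crabp1 was at 279 and 1558 CPM, Nrp2 at 276 and 467 CPM and Gm36028 at 291 and 58.6 CPM. Maturity and Tfap2e cannot be told apart in this division of cells.

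Few genes of the other lists were called at P10, where 2.41% of all genes were called higher, 1.71% were called lower and 54.1% had a ratio above 1, so that a count of 0 in a short list is near this background. Of 22 axon growth and cytoskeleton genes, 20 were tested and none was called in either comparison, with a P10 median log2 ratio of -0.03. Dcx, a microtubule-binding protein of migrating and young neurons, was at 178, 172 and 163 CPM, Stmn3 at 1182, 1103 and 1004 CPM and Map1b at 3067, 3173 and 3285 CPM, near-level values across all 3 libraries. Of 12 neuronal transcription factors tested none was called at P10, among them Lhx2 (785 and 598 CPM), Ebf1 (2347 and 1951 CPM) and Sox11 (736 and 769 CPM). Of 6 tested genes of the Meis, Pbx and Pknox families, the DNA-binding partners of Meis2, none was called. Of 23 axon guidance and adhesion genes Kirrel3 was called, and of 13 maturation and transduction genes Gng13, while over all members Kirrel3 was not called and Stoml3 was called lower beside Gng13. Omp itself was at 189 and 145 CPM (0.77). None of 5 cell cycle and 6 apoptosis genes tested was called, and over all members 1 of 9 apoptosis genes was called higher.

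Of 8 Notch pathway genes tested at P10 none was called, and the receptor genes Notch1 and Notch2 were under 50 UMIs, at 3.38 and 8.17 CPM and 1.88 and 8.17 CPM. Over all members, in which Notch1, Notch2 and Ccnd1 were called higher, the panel-bearing members of the P10 mutant had 61.0, 33.9 and 34.8 CPM against 8.17, 8.17 and 14.1 CPM in the others. In the retinoid list Crabp1 was at 1401 and 841 CPM (0.60), and none of the 4 genes tested was called at P10. Of 17 endoplasmic reticulum and unfolded protein response genes, 15 had a ratio above 1 (54.1% of all genes) with a median log2 ratio of 0.22, and 1, Trib3, was called higher. Over all members 13 of the 17 had a ratio above 1. Ddit3, a transcription factor of that response, was at 130 and 255 CPM, a ratio of 1.96 that fell just under the limit. Of 11 immediate early and heat shock genes, Fosb, Hspa1a and Hspa1b were called higher and 10 had a ratio above 1. Over all members none of the 11 was called, with ratios of 1.68 for Fosb, 1.73 for Hspa1a and 1.54 for Hspa1b, and 8 were above 1. Hspa1a was at 22.6 and 98.8 CPM, with 52.6% of the mutant UMIs in 1 cell, and immune barcodes were at 696 and 999 CPM. Among imprinted genes Peg3, a zinc-finger protein, was at 112, 54.2 and 127 CPM and was called lower at P10 and higher at 3 months.

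The 3-month mutant members differed from the P10 mutant members in more genes, on 24 cells and 313829 UMIs, where 3 UMIs correspond to 9.56 CPM. Of 5262 genes, 116 were called higher (2.2%) and 423 lower (8.04%), with a median log2 ratio of -0.12 over all genes. Over all members 234 of 7208 genes were called higher (3.25%) and 764 lower (10.6%), and the genes with the lowest ratios there included Ednrb, Car9, Svopl, Sult1e1 and Krt23 of the sustentacular panel. Gm42418, a gene that overlaps ribosomal RNA, was at 30466 CPM in 3-month and 1376 CPM in P10 mutant members, and at 41160 and 1788 CPM in the other barcodes, so the libraries differed in RNA composition beyond the members.

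Tex15, known from germ cells, was at 453, 257 and 1574 CPM in the P10 control, P10 mutant and 3-month mutant (6.12-fold between the mutants, 5.33 to 7.04). Crabp1 was at 1401, 841 and 1947 CPM (2.31-fold, 2.09 to 2.56) and Myt1l, a zinc-finger factor that represses non-neuronal genes, at 672, 534 and 1268 CPM (2.37-fold). Cdkn1b, an inhibitor of the cell cycle, was at 158, 134 and 389 CPM, and Cdkn1c, of the same class, at 322, 264 and 539 CPM, so both inhibitors were called higher in the older mutant. Cdkn1b was also higher in immune barcodes, at 54.0 CPM in the P10 and 113 CPM in the 3-month mutant. Shtn1, a protein of growing axons, was at 54.2, 59.4 and 175 CPM and Id4, an inhibitor of basic helix-loop-helix factors, at 169, 87.7 and 249 CPM. Hist1h1e, a linker histone, was at 34.2 and 688 CPM, and Hist1h2ap at 21.5 and 137 CPM. Immune barcodes gave a ratio of 4.91 for Hist1h1e against 20.1 in members, 3.13 for Shtn1 against 2.95, and 1.66 for Tex15. Ifi27, Rab11fip2, Zfp608 and Trim24 were the others of the 12.

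Among genes lower at 3 months, Insm1, a transcription factor of neuronal progenitors, was at 303, 414 and 86.0 CPM, 0.208 of the P10 mutant (0.136 to 0.306), whose level over all members was 266 CPM. The chaperones Rtp1 and Rtp2, which carry receptors of the main olfactory epithelium to the cell surface, were at 213 and 57.4 CPM and at 161 and 60.5 CPM. Atf5, a transcription factor of olfactory neuron differentiation, was at 2425 and 1166 CPM, and Atf4, Ddit3, Dnajb9 and Trib3 of the same stress list were also called lower, with ratios of 0.36, 0.46, 0.38 and 0.26. Over all members Atf5 and Ddit3 had ratios of 0.67 and 0.64 and were not called. In immune barcodes Atf4 was at 303 and 161 CPM and Ddit3 at 67.8 and 60.5 CPM. Plxna1, Kirrel2, Cntn1 and Cntn4 of the guidance and adhesion list were called lower, Cntn4, an adhesion molecule, at 450 and 210 CPM. Over all members Cntn1, Cntn4 and Rtp2 were not called, and Nrp2 was called higher (2.23). Tmbim6, Cacna1d, Mef2b, Slc7a5, Galnt6, 2610037D02Rik, Gm47283 and AA465934 were among the 12 with Insm1, Rtp1 and Tfap2e, and the predicted genes Gm47283 and AA465934 had ratios of 0.136 and 0.04 in immune barcodes too. The Omp makeup of the members differed between the ages, since 79.2% had 0 Omp UMIs at 3 months and 52.1% at P10, and its part in these differences was not tested.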

How the data were processed

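The authors made gene-by-barcode tables of raw UMI counts from droplet libraries of the VNO, and these deposited counts, for 32285 mm10 features, were used as they stand. Cell Ranger 4.0.0, Seurat 3.2.3 and bcl2fastq are named in the submitters' processing notes, and the header of the 3-month table names Cell Ranger 6.0.1. The other settings of the read processing are not given in the sources used here. Columns of per-sample values left unused numbered 0. The library totals were 83870584, 80760046 and 70074800 UMIs, and 1 UMI of the 162, 71 and 24 members with few panel genes was worth 0.376, 0.743 and 3.19 CPM.

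Barcodes were kept, classed and summed with Python 3.11.15, numpy 2.4.6, scipy 1.17.1 and pandas 2.3.3, and drawn with matplotlib 3.10.9. The rule for members, the markers and all gene lists were chosen with earlier results of these data known, and the sustentacular panel and its limit of 3 genes were chosen after the present values were seen. Groups followed the labels, with 1 library each, so no test was run between them. Levels have exact Poisson intervals, ratios exact conditional binomial ones and shares Clopper-Pearson ones, all at 95%, and all cover counting error only. Genes with fewer than 50 UMIs in both libraries together were not compared. Named genes were the 12 with the highest lower bound and the 12 with the lowest upper bound of the ratio. They had to be seen in at least 10% of members of the higher library, with no cell above 20% of its UMIs and a level at least that of the other barcodes there, and rule genes, vomeronasal receptors and mitochondrial genes were left out. Called genes of the gene lists and the identity lists were named as well. For the basal and apical lists, 0.5 UMI was added before the log2 ratio and genes under 10 UMIs were left out. Doublets were called with Scrublet in scanpy 1.11.5, at an expected 0.8% per 1000 barcodes, and were kept in the main results. The scripts were tested on simulated data. Alternatives were a mitochondrial limit of 5%, removal of Scrublet calls, of cells with over 0.5% of another class's markers and of panel-bearing cells, other limits on Gnai2, Meis2 and UMIs, means over cells, thinning to 2000 UMIs and scaling by the median ratio of genes. Levels without the 1 or 2 cells with the most UMIs of a gene were added after the data were seen. Some genes that met these rules are not reported here.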

Additional observations from a re-analysis of the deposited data

How the results depend on the processing

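No paired analysis was possible because each group is 1 library, and no replicate was left out. Values are ratios of the P10 mutant to the P10 control, then of the 3-month to the P10 mutant, over all members unless stated. The main ratios were 39.3 and 0.45 for Tfap2e, 1.15 and 0.662 for Vmn1r and 4.09 and 4.78 for Vmn2r. Of the alternatives, 72 values stayed within their counting interval or call, 52 moved and 4 reversed. The cause was not tested in any case.

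With a mitochondrial limit of 5% (108, 53 and 24 members), the members' share was 6.85% (control) and 4.16% (P10 mutant), Tfap2e was 575 and 0.307, Vmn1r 1.34 and 0.448, and Vmn2r 5.16 and 2.37. It left 136 genes higher and 443 lower at 3 months, and turned the apical list to -0.19. Without Scrublet calls Tfap2e was 75.8 and Vmn2r 3.53. Without cells with over 0.5% of another class's markers the shares were 3.4% and 1.77%, Tfap2e 69.6, Vmn1r 1.30 and 0.573, with 139 genes higher at P10, 106 higher and 378 lower at 3 months, an apical list at -0.19 and Hspa1b reversed at 3 months, at 1.14. With Gnai2 at least 3 times Gnao1, Tfap2e was 58.7 at P10, Vmn1r 0.791 and Vmn2r 5.59 at 3 months.

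Without panel-bearing members the shares were 3.38% and 1.79%, Tfap2e 111, Vmn1r 1.51 and 0.527, Vmn2r 3.42 and 3.06, Tfap2e by Omp 227 and 683 CPM at 0 and at 5 or more UMIs, the genes at 3 months 116 higher and 423 lower, and the apical list -0.34 against 0.83. As means over cells Tfap2e was 64.2, Vmn1r 1.18 and 0.268, and Vmn2r 1.99 and 5.65. Thinned to 2000 UMIs, Tfap2e was 61.3, Vmn1r 0.269 at 3 months, and Vmn2r 1.87 and 5.80. With a minimum of 20 UMIs, 449 genes were higher and 261 lower at P10 and 359 higher at 3 months; with 200 UMIs, 66 and 57 at P10, and 55 and 220 at 3 months. With a ranking bound of 1.5 the basal list was at -0.00097 and the apical at 0.72, and ranked in the other control part the apical list was at 0.13. Depth limits the 3-month library most, with 3 UMIs of a gene over its members making up the limit that a count of 0 allows.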
